A study of Mus musculus with 2 samples.

Results

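The genes examined here are those of the TGF-beta and BMP pathways that the array design names by family: the ligands (Tgfb, Bmp, Gdf and the inhibin beta chains), their receptors, secreted antagonists, Smads, Smurf ubiquitin ligases and latent TGF-beta binding proteins. They were taken by gene name alone, with every probe of a matching name on both arrays. This gave 105 probes of 66 gene names, out of 41174 gene probes of 27962 names. Name matching also brought in 5 genes that are not ligands, receptors or Smads (Bmp1, Bmp2k, Tgfbi, Tgfb1i1 and Tgfbrap1), which are described last. Of the 105 probes, 61 of 40 genes could be tested, and 8 had no value on an array because their spot or its local background carried an outlier flag.

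The study set RNA from shed microvesicles against RNA from their donor cells. Both came from 3T3-L1, an established mouse preadipocyte line, turned into adipocytes by IBMX (0.5 mM), dexamethasone (0.25 µM) and insulin (10 µg/ml) in medium with 10% fetal calf serum. Adipocyte-derived microvesicles (ADMs) were pelleted by ultracentrifugation from the medium of day 11, and the donor cells were taken on the same day, so both groups share the line and the induction. Each of 2 biological replicates was measured on its own 2-colour array, with ADM RNA in Cy5 on replicate 1 and in Cy3 on replicate 2. Nothing in the labels says that the replicates came from separate cultures, so p-values measure the spread between these arrays, which may be technical.

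As background, ligands of the TGF-beta family bind pairs of type I and type II receptor kinases, which phosphorylate receptor-activated Smads. Smad2 and Smad3 carry the TGF-beta and activin signal, Smad1, Smad5 and Smad9 carry the BMP signal, and both groups enter the nucleus with Smad4. Smad6, Smad7 and the Smurf ligases restrain the signal, antagonists such as noggin, chordin and follistatin bind ligands outside the cell, and latent TGF-beta binding proteins hold TGF-beta in the matrix. In fat, Bmp4 and Bmp7 are known to favour adipocyte commitment, while TGF-beta is known to hold preadipocytes back from differentiation.

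The vesicle RNA gave far stronger signals than the cell RNA across the arrays. Over the tested probes with positive net signal (the mean spot intensity minus the median local background, in scanner units), the median ratio of vesicle to cell signal was 39.1 on replicate 1 and 7.64 on replicate 2. For the tested TGF-beta and BMP probes it was 30.2 and 7.93. The log2 ratios below were therefore taken after loess normalization within each array, which sets probes of like brightness to a ratio near 0 on balance. A probe called higher or lower stands above or below probes of its own brightness, and such a ratio describes the make-up of the RNAs, not an amount per cell or vesicle. In these bulk RNAs, fewer cells of a type and less RNA per cell cannot be told apart. Directions follow the dye labels, so "vesicle RNA" and "cell RNA" stand for what the labels put in each channel. Of 11 adipocyte markers, 8 were well above background in the vesicle RNA on both arrays and 7 in the cell RNA, while Adipoq, Cfd and Cidec lacked a usable value on an array. None of the 6 macrophage and leukocyte markers on the array (Ptprc, Adgre1, Cd68, Csf1r, Itgam and Fcgr1) was well above background in either RNA on both arrays, and of 7 endothelial markers only Flt1 was. Of 10 tested adipocyte marker probes, 1 passed the test described below as higher (5.54% of all tested probes did) and 4 as lower (10.9%). All 4 lower ones (Fabp4, Lpl, Plin1 and Retn) were positive with median centring on the tested probes, where the list's median log2 ratio was 2.38. All 8 preadipocyte and fibroblast markers were well above background in the vesicle RNA and 5 in the cell RNA.

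More of the TGF-beta and BMP probes stood out from background in the vesicle RNA than in the cell RNA. The scanner's flag for a spot well above its background was set on both arrays for 60 of the 105 probes (57.1%) in the vesicle RNA, where the share of all probes was 41.9%. In the cell RNA it was set for 18 probes (17.1%), where the share of all probes was 21.3%. In the cell RNA the count was 18 on replicate 1 alone and 36 on replicate 2 alone. The vesicle RNA only was well above background for 27 of these probes, against a share of 12.1% of all probes, and the cell RNA only for 1, the Gdf11 probe, against 1.64%. By gene, 39 of 66 names had a probe well above background in the vesicle RNA on both arrays, 16 had one in the cell RNA, and 26 had one in neither. Over all 27962 names the counts were 12184, 7470 and 15039.

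**Figure D1:**
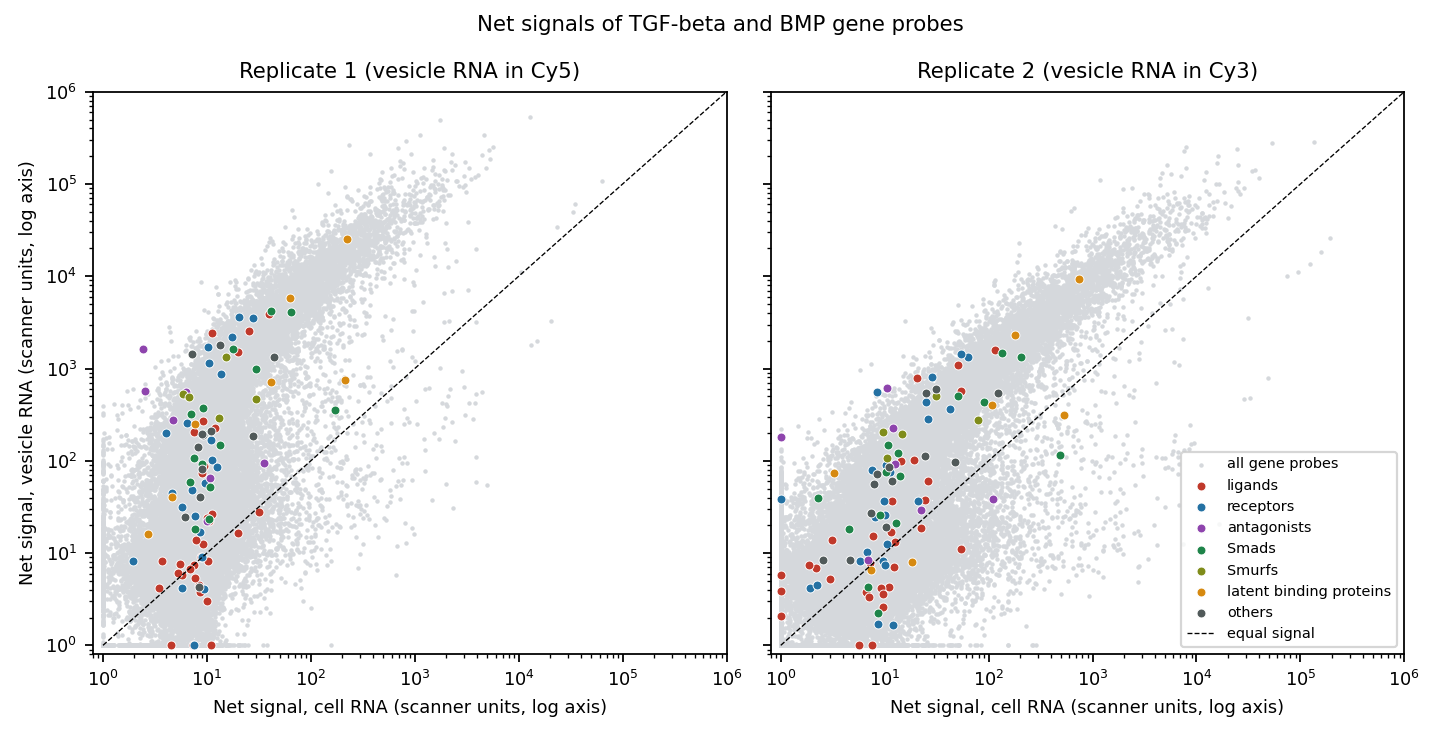
Net signal of each probe in the cell RNA (x axis) and the vesicle RNA (y axis), in scanner units on log axes, with replicate 1 on the left and replicate 2 on the right. Coloured points are the TGF-beta and BMP probes by role, grey points are all gene probes, values under 1 are drawn at 1, and the dashed line marks equal signal. Of the 61 tested probes, 57 lie above the line on both arrays. The Smad4, Ltbp4 and Chrd probes that were lower after loess lie above the line on replicate 1 and below it on replicate 2.

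After loess, 7 of the 61 tested probes passed the test as higher in the vesicle RNA, where 5.54% of all 18117 tested probes did, and 8 passed as lower, where 10.9% of all did. As shares of the 61, these are 11.5% and 13.1%. All 15 calls rest on leaving out spots with an outlying local background: with those kept, limma called 0 of 63 tested probes, and 0 had an unadjusted p under 0.05. Plain background subtraction in place of normexp ended 10 of the 15 calls. The higher probes belong to the receptors Tgfbr1, Tgfbr2 and Bmpr2, the ligand chain Inhbb, the BMP-binding protein Bmper, the matrix protein Tgfbi and the protease Bmp1. The lower probes belong to Smad4, Ltbp4, Ltbp3, Chrd, Gdf11, Smurf1, Tgfb1i1 and, at another position, Bmp1. The remaining 46 did not pass. A probe entered the test by being well above background in either RNA, and the balance of calls differed with that: the 17 probes well above background in both RNAs gave 2 higher and 7 lower, with a median log2 ratio of -0.24, and the other 44 gave 5 and 1, with a median of 0.17. The 5 higher probes among the 44 passed the filter through the vesicle RNA alone, and the 1 lower, Gdf11, through the cell RNA alone. Their directions are therefore descriptions. With median centring on the tested probes the medians of the 17 and the 44 had the opposite signs, 1.12 and -0.74. Over all probes these classes gave 791 higher and 1522 lower of 7919, and 213 and 451 of 10198. The median log2 ratio was 0.17 over the 61 probes and 0.07 over all tested probes, and -0.53 over the 61 with median centring on the tested probes. After loess, 51 of the 61 had the same sign on both arrays (83.6%, against 81.0% of all tested probes). The direction of the balance depended on the scaling: the scanner's own processed ratios gave 30 higher and 8 lower probes (background 32% and 14.2%), median centring on all probes gave 30 and 0 (59.5% and 1.46%), and median centring on the tested probes, an alternative added after the data were seen, gave 18 and 26 (36.1% and 36.3%). No probe was at least 2-fold higher on both arrays, where 1.11% of all tested probes were, though Bmper, Inhbb and Tgfbr2 probes (3 in all) were on replicate 2 alone. The Smad4, Ltbp4 and Chrd probes were at least 2-fold lower on both, where 6.48% of all were.

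**Figure D2:**
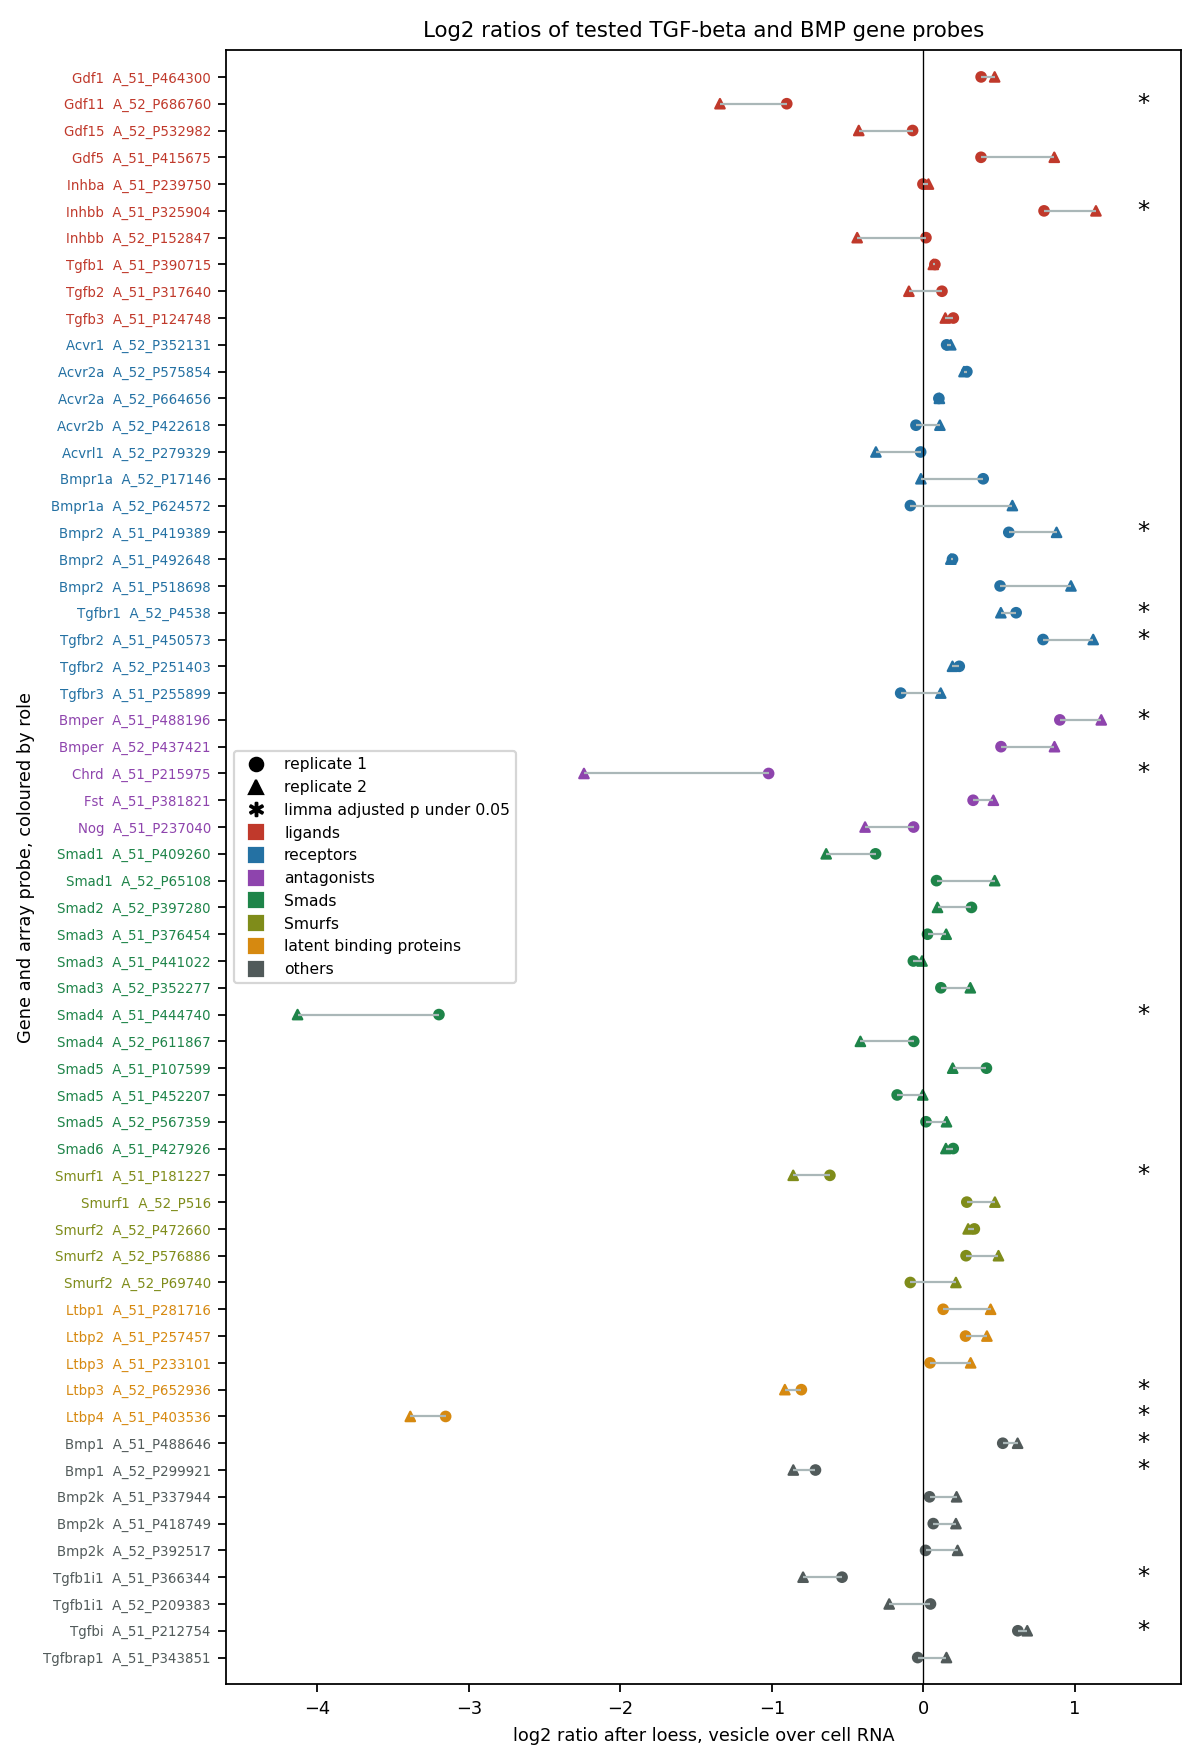
Log2 ratio after loess of the vesicle over the cell RNA (x axis) for 60 of the 61 tested TGF-beta and BMP probes (y axis, coloured by role), with a circle for replicate 1, a triangle for replicate 2 and a line joining them. An asterisk marks the 15 probes with a limma adjusted p under 0.05, and the lower Smad4 and Ltbp4 probes are the only ones below -3 on both arrays.

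Most ligand genes stayed near background. Of 28 ligand names, 19 had no probe well above background in either RNA on both arrays, among them Bmp2, Bmp4, Bmp6 and Bmp7. The same held for 15039 of all 27962 names. Bmp4, which drives commitment of progenitors to fat, is spotted many times on the array. Its net signal was 24.2 ± 4.16 (SD over 7 spots) in the vesicle RNA and 10.0 ± 2.19 in the cell RNA on replicate 1, and 13.1 ± 2.58 and 12.7 ± 2.85 (9 spots) on replicate 2. Bmp2, also repeated, read 5.80 ± 4.58 and 5.80 ± 1.17 on replicate 1 (9 spots) and 3.81 ± 1.34 and 6.66 ± 4.14 on replicate 2 (9 spots). For comparison, 95% of 140 negative control spots lay under 13.7 and 10.0 on replicate 1 and under 8.94 and 7.30 on replicate 2, in the vesicle and the cell RNA respectively. The Bmp2 means lay inside that range, and the Bmp4 means lay above it in the vesicle RNA on both arrays and in the cell RNA on replicate 2. Not well above background therefore sets a bound and does not show that a transcript was absent. Values for Bmp3, Gdf3, Gdf8 (myostatin, now named Mstn) and Gdf9 were available from 1 array.

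The TGF-beta isoforms were measurable and did not pass the test. Tgfb1, the most widely expressed isoform, averaged 271 ± 37.0 over 9 spots in the vesicle RNA on replicate 1 and 99.0 ± 5.06 over 10 spots on replicate 2. In the cell RNA it averaged 9.17 ± 3.24 and 14.3 ± 3.55, not well above background on either array. On the log2 scale after loess the arrays gave 0.08 and 0.07 (mean 0.07 ± 0.01 SD, n = 2 arrays, adjusted p = 0.656 in limma), so relative to probes of like brightness it was close to 0 on both arrays. Tgfb2 and Tgfb3 had mean log2 ratios of 0.01 ± 0.15 (SD over n = 2 arrays, adjusted p = 0.941 in limma) and 0.17 ± 0.04 (SD over n = 2 arrays, adjusted p = 0.325 in limma). For Tgfb2 the arrays had opposite signs, and for Tgfb3 both were positive.

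Inhbb, which encodes the beta B chain of activin B and inhibin B, had the ligand probe that was higher. With the net signal given as vesicle RNA against cell RNA here and below, probe A_51_P325904 (chr1:119276025-119276084, minus strand; all positions are those of mouse build mm7) read 2446 against 11.2 on replicate 1 and 793 against 20.4 on replicate 2. After loess its arrays gave 0.80 and 1.14 (mean 0.97 ± 0.24 SD, n = 2 arrays, adjusted p = 0.0288 in limma), 1.96-fold. A second Inhbb probe, A_52_P152847 at chr1:119278359-119278418, read 74.3 against 8.89 on replicate 1 and 37.8 against 24.4 on replicate 2, with log2 ratios of 0.02 and -0.44 (mean -0.21 ± 0.32 SD, n = 2 arrays, adjusted p = 0.392 in limma). The higher value was thus seen with the probe nearer the 3′ end and not with the other. Neither Inhbb probe was well above background in the cell RNA on both arrays. Both entered the test through the vesicle RNA, so their directions are descriptions. Inhba, the chain of activin A, was well above background in the vesicle RNA only and read 88.8 against 9.31 on replicate 1 and 36.3 against 11.8 on replicate 2, with a log2 ratio of 0.02 ± 0.03 (SD over n = 2 arrays, adjusted p = 0.927 in limma).

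Gdf11, a ligand close to myostatin that signals through activin receptors, was the lower ligand and the only TGF-beta or BMP gene well above background in the cell RNA alone. Its probe (chr10:128386996-128387055) read 27.5 against 31.4 on replicate 1 and 11.1 against 53.9 on replicate 2. The log2 ratios were -0.90 and -1.34 (mean -1.12 ± 0.31 SD, n = 2 arrays, adjusted p = 0.0277 in limma). The mean ratio is 2.18-fold in favour of the cell RNA, with the vesicle side of it not well above background. The filter let the Gdf11 probe in only where the cell RNA was high, so its direction is no result. Gdf5, a BMP-type ligand known from joint formation, read 2540.4 against 25.5 on replicate 1 and 1095 against 50.5 on replicate 2, with log2 ratios of 0.38 and 0.86 (mean 0.62 ± 0.34 SD, n = 2 arrays, adjusted p = 0.079 in limma). The Gdf1 probe read 3929 against 39.7 on replicate 1 and 1599 against 116 on replicate 2 and its log2 ratio was 0.43 ± 0.06 (SD over n = 2 arrays, adjusted p = 0.0775 in limma); the files also assign it to the transcript of Cers1, a ceramide synthase, so the genes cannot be told apart. Both probes were above 0 on both arrays without passing the test. Gdf15, a stress-induced hormone, had a log2 ratio of -0.25 ± 0.25 (SD over n = 2 arrays, adjusted p = 0.282 in limma).

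Receptors held 3 of the 7 higher probes and none of the lower ones (4 and 0 at an unadjusted p under 0.05 in limma). Among all tested probes 5.54% were higher and 10.9% lower. Of 24 receptor probes 14 were tested, all well above background in the vesicle RNA and 2 of them in both RNAs, so most entered the test through the vesicle RNA and the count is a description. The 14 had a median log2 ratio of 0.20 after loess, against 0.07 over all tested probes, and of -0.65 with median centring on the tested probes. Tgfbr2, the type II receptor that binds TGF-beta first, read 3579 against 20.5 on replicate 1 and 1451 against 53.8 on replicate 2 with probe A_51_P450573 (chr9:115760364-115760423). The log2 ratios were 0.79 and 1.12 (mean 0.96 ± 0.23 SD, n = 2 arrays, adjusted p = 0.0288 in limma), 1.94-fold. A probe 22041 bases further 5′ on the gene's strand, A_52_P251403, read 44.6 against 4.56 on replicate 1 and 24.4 against 8.08 on replicate 2, and its ratio was 0.22 ± 0.03 (SD over n = 2 arrays, adjusted p = 0.24 in limma). Both Tgfbr2 probes were above 0 on both arrays, and the 3′ one passed. A further Tgfbr2 probe was not well above background.

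Tgfbr1, the type I kinase that partners Tgfbr2, read 1732 against 10.3 on replicate 1 and 439 against 25.3 on replicate 2 with probe A_52_P4538 (chr4:47428363-47428422). The log2 ratios were 0.61 and 0.51 (mean 0.56 ± 0.07 SD, n = 2 arrays, adjusted p = 0.0481 in limma), 1.48-fold. The limma adjusted p of Tgfbr1 was 0.055 in the processed ratios, 0.0508 with 1 probe per gene and 0.0507 with robust moderation. The other Tgfbr1 probe had no usable spot on replicate 1 and was not well above background on replicate 2. Bmpr2, the type II receptor for BMPs, was read by 3 tested probes that were all above 0 on both arrays. Probe A_51_P419389 (chr1:60121592-60121651) read 3499 against 28.1 on replicate 1 and 1326 against 63.1 on replicate 2, with log2 ratios of 0.56 and 0.88 (mean 0.72 ± 0.22 SD, n = 2 arrays, adjusted p = 0.0439 in limma). Probe A_51_P518698, 6986 bases further 3′, read 2174 against 17.5 on replicate 1 and 810.2 against 28.4 on replicate 2, with log2 ratios of 0.51 and 0.97 (mean 0.74 ± 0.33 SD, n = 2 arrays, adjusted p = 0.0562 in limma). The third, A_51_P492648, read 258 against 6.47 on replicate 1 and 90.2 against 10.4 on replicate 2, with a ratio of 0.19 ± 0.01 (SD over n = 2 arrays, adjusted p = 0.289 in limma). The first and second probes had nearly the same mean, and the second missed the threshold with the wider spread.

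The other receptors did not pass, with mean log2 ratios between -0.17 for Acvrl1 and 0.28 for an Acvr2a probe. Acvr2a, a type II receptor for activins, was well above background in the vesicle RNA only and read 202 against 4.08 on replicate 1 and 79.1 against 7.55 on replicate 2 with 1 probe and 48.5 against 7.19 on replicate 1 and 26.0 against 10.1 on replicate 2 with another. Acvr2b, its close relative, read 168 against 10.8 on replicate 1 and 75.0 against 11.3 on replicate 2. Tgfbr3 (betaglycan), a co-receptor that presents TGF-beta2, read 85.5 against 12.5 on replicate 1 and 36.4 against 9.93 on replicate 2. These were likewise well above background in the vesicle RNA alone, with mean log2 ratios of 0.03 and -0.02. For Bmpr1a, a type I receptor for BMPs, probe A_52_P624572 read 102 against 11.1 on replicate 1 and 38.3 against -0.115 on replicate 2, and the signs of its arrays differed, at -0.08 and 0.59 (mean 0.25 ± 0.48 SD, n = 2 arrays, adjusted p = 0.418 in limma). Acvr1b, the type I activin receptor, read 563 against 8.38 on replicate 2 with a probe that had no value on replicate 1, and its other probe was not well above background. Acvr1c, Bmpr1b and Eng (endoglin, a co-receptor of endothelium) had no probe well above background in either RNA. Beside the receptor result stands the preadipocyte and fibroblast marker list, of which 4 of 11 tested probes were higher and none lower (6 and 0 at an unadjusted p under 0.05 in limma), where 5.54% and 10.9% of all tested probes were. Its summed net signal was 133889 and 48323 in the vesicle RNA and 819 and 2783 in the cell RNA. The summed net signal of the adipocyte list was 981308 and 1086150 in the vesicle RNA and 9125 and 76164 in the cell RNA. Each sum covers the probes with a value on that array. Adipoq (225971 in the vesicle RNA), Cfd (252196), an Lpl probe (160557) and a Fabp4 probe (16957) counted on replicate 2 only. The adipocyte sums therefore cannot be compared between arrays. The part of preadipocyte or adipocyte RNA in the receptor values was not tested.

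Among the antagonists, Bmper was higher and chordin lower. Bmper, a secreted BMP-binding protein with chordin-like repeats, read 1648 against 2.43 on replicate 1 and 608 against 10.4 on replicate 2 with probe A_51_P488196 (chr9:23364022-23364081). It was well above background in the vesicle RNA only, with log2 ratios of 0.90 and 1.17 (mean 1.04 ± 0.19 SD, n = 2 arrays, adjusted p = 0.0237 in limma). The mean ratio is 2.05-fold, with the cell side of it not well above background. The filter let this probe in through the vesicle RNA alone, so its direction is a description. The second Bmper probe, 194 bases away, read 574 against 2.53 on replicate 1 and 183 against -1.29 on replicate 2, with log2 ratios of 0.51 and 0.87 (mean 0.69 ± 0.25 SD, n = 2 arrays, adjusted p = 0.0506 in limma), just short of the threshold. Both probes pointed the same way on both arrays.

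Chrd, which encodes chordin, an antagonist that holds BMPs away from their receptors, read 94.8 against 35.5 on replicate 1 and 38.1 against 109.9 on replicate 2 (chr16:20287963-20288135). The vesicle signal was thus the stronger on replicate 1 and the weaker on replicate 2. Its log2 ratios were -1.02 and -2.24 (mean -1.63 ± 0.86 SD, n = 2 arrays, adjusted p = 0.049 in limma), 3.10-fold lower; the SD is the widest of the 15 probes that passed. The limma adjusted p was 0.0573 without the filter on dim probes, 0.0525 with 1 probe per gene and 0.0594 with robust moderation. Fst (follistatin, which traps activin) was well above background in the vesicle RNA only and read 562 against 6.32 on replicate 1 and 228 against 12.1 on replicate 2, with a ratio of 0.40 ± 0.09 (SD over n = 2 arrays, adjusted p = 0.0934 in limma). Nog (noggin) had a ratio of -0.22 ± 0.23 (SD over n = 2 arrays, adjusted p = 0.305 in limma), and Grem1 was not well above background.

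Of the Smads, 12 of 15 probes were tested, none was higher and 1 was lower, where 5.54% and 10.9% of all tested probes were. At an unadjusted p under 0.05 in limma the counts were 0 and 2. The median log2 ratio of the Smad probes was 0.09 after loess and -0.60 with median centring on the tested probes. The lower probe was A_51_P444740 for Smad4, the partner that TGF-beta and BMP Smads share, and it read 355 against 171 on replicate 1 and 115 against 482 on replicate 2. On the log2 scale after loess the arrays gave -3.20 and -4.13 (mean -3.66 ± 0.66 SD, n = 2 arrays, adjusted p = 0.00948 in limma), 12.7-fold lower. Another Smad4 probe, A_52_P611867, read 4079.6 against 64.3 on replicate 1 and 1340.0 against 204 on replicate 2, with log2 ratios of -0.06 and -0.42 (mean -0.24 ± 0.25 SD, n = 2 arrays, adjusted p = 0.294 in limma). The probes lie on chromosome 18 with their centres 70 bases apart, and the files give the lower one a span of 35 bases and the other a span of 60. The other probe did not pass, so the low value belongs to 1 of the 2 Smad4 probes and is not a value for the gene. The cause of the difference was not tested.

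Smad1 and Smad5, the BMP Smads, and Smad3, a TGF-beta Smad, each had probes of both signs, and none passed. Smad1 read 998 against 29.5 on replicate 1 and 433 against 90.9 on replicate 2 with a ratio of -0.48 ± 0.23 (SD over n = 2 arrays, adjusted p = 0.0922 in limma). Its probe 402 bases further 3′ read 108 against 7.51 on replicate 1 and 39.5 against 2.27 on replicate 2 with a ratio of 0.28 ± 0.27 (SD over n = 2 arrays, adjusted p = 0.25 in limma). The Smad1 probes therefore gave no common direction. Smad5 read 4229.9 against 41.1 on replicate 1 and 1458 against 135 on replicate 2 with its 3′ probe, with log2 ratios of 0.42 and 0.19 (mean 0.31 ± 0.16 SD, n = 2 arrays, adjusted p = 0.168 in limma). Its other probes, both well above background in the vesicle RNA only, read 150.0 against 13.5 on replicate 1 and 69.0 against 14.0 on replicate 2 for A_51_P452207 and 92.1 against 8.89 on replicate 1 and 25.6 against 9.03 on replicate 2 for A_52_P567359, with mean ratios of -0.09 and 0.09. The Smad5 probes therefore had no common direction either.

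The 3 Smad3 probes were all well above background in the vesicle RNA only. They read 369 against 9.18 on replicate 1 and 147 against 10.8 on replicate 2 for A_52_P352277, 196 against 9.42 on replicate 1 and 74.8 against 10.3 on replicate 2 for A_51_P376454 and 52.5 against 10.7 on replicate 1 and 21.2 against 12.8 on replicate 2 for A_51_P441022. Their mean log2 ratios were 0.21, 0.09 and -0.04, with adjusted p of 0.275, 0.591 and 0.826 in limma. Smad2 had a ratio of 0.21 ± 0.16 (SD over n = 2 arrays, adjusted p = 0.299 in limma). Smad6, an inhibitory Smad of BMP signalling, read 323 against 6.95 on replicate 1 and 122 against 13.5 on replicate 2, with a ratio of 0.17 ± 0.03 (SD over n = 2 arrays, adjusted p = 0.321 in limma). Smad7, the inhibitory Smad of TGF-beta signalling, was well above background in the vesicle RNA of replicate 1 alone, at 58.3 against 6.83, and Smad9 on neither array. Levels of different Smads are not compared, since each probe has its own response.

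The Smurf ligases, which tag Smads and receptors for breakdown, gave 1 lower and 0 higher probes of 5, with a median log2 ratio of 0.32. At an unadjusted p under 0.05 in limma the counts were 1 lower and 3 higher. Among all tested probes 10.9% were lower and 5.54% higher. Smurf1 probe A_51_P181227 (chr5:143908090-143909317, which the files place over 1228 bases) read 464 against 29.9 on replicate 1 and 277 against 79.5 on replicate 2. After loess its arrays gave -0.62 and -0.86 (mean -0.74 ± 0.17 SD, n = 2 arrays, adjusted p = 0.0371 in limma), 1.67-fold lower. With median centring on all probes the mean log2 ratio was 1.66, a reversed sign. The other Smurf1 probe, 3444 bases further 3′, read 1346 against 15.4 on replicate 1 and 498 against 31.3 on replicate 2, with log2 ratios of 0.29 and 0.47 (mean 0.38 ± 0.13 SD, n = 2 arrays, adjusted p = 0.109 in limma). The Smurf1 probes thus had opposite signs on both arrays. Smurf2 had 3 tested probes with mean ratios of 0.06, 0.32 and 0.39, none of which passed. Of these, A_52_P576886 read 489 against 6.66 on replicate 1 and 205 against 9.53 on replicate 2 and A_52_P69740 read 290.0 against 13.0 on replicate 1 and 107 against 10.6 on replicate 2, well above background in the vesicle RNA only.

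Latent TGF-beta binding proteins gave 2 lower probes of 5 tested, where 10.9% of all tested probes were lower. Ltbp4, which is needed for elastic fibre assembly as well as TGF-beta storage, read 746 against 215 on replicate 1 and 314 against 528 on replicate 2 (chr7:24224015-24224074). The log2 ratios were -3.15 and -3.39 (mean -3.27 ± 0.17 SD, n = 2 arrays, adjusted p = 0.00271 in limma), 9.64-fold lower, the smallest adjusted p of the 61 probes. The signals of the vesicle RNA were 3.48 times (replicate 1) and 0.595 times (replicate 2) those of the cell RNA, where the median of all tested probes was 39.1 and 7.64 times. With median centring on all probes the mean Ltbp4 ratio was 0.14, where the median of all tested probes was 2.04.

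Ltbp3, which is known for its part in bone and tooth growth, had probes that disagreed. The probe nearer the 5′ end, A_52_P652936 (chr19:5646569-5646628), read 719.7 against 41.7 on replicate 1 and 406 against 109 on replicate 2, with log2 ratios of -0.80 and -0.91 (mean -0.86 ± 0.08 SD, n = 2 arrays, adjusted p = 0.0253 in limma). With median centring on all probes its mean was 1.95, a reversed sign. The probe 6524 bases further 3′, A_51_P233101, read 25257 against 221 on replicate 1 and 9384 against 733 on replicate 2, with log2 ratios of 0.04 and 0.31 (mean 0.18 ± 0.19 SD, n = 2 arrays, adjusted p = 0.372 in limma). The low value was seen with the 5′ probe alone. Ltbp2, a matrix protein that binds fibrillin, read 5812 against 63.2 on replicate 1 and 2314 against 178 on replicate 2 with a ratio of 0.35 ± 0.10 (SD over n = 2 arrays, adjusted p = 0.118 in limma). The tested Ltbp1 probe was well above background in the vesicle RNA only, at 248 against 7.68 on replicate 1 and 74.1 against 3.27 on replicate 2, with a ratio of 0.29 ± 0.22 (SD over n = 2 arrays, adjusted p = 0.213 in limma). The other Ltbp1 probe was well above background in the cell RNA of replicate 2 alone and was not tested.

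The genes caught by name alone split both ways. Tgfbi, a secreted matrix protein induced by TGF-beta, read 1426 against 7.26 on replicate 1 and 539.7 against 25.0 on replicate 2 (chr13:55730801-55730860). Its log2 ratios were 0.62 and 0.69 (mean 0.66 ± 0.04 SD, n = 2 arrays, adjusted p = 0.0364 in limma), 1.57-fold, with the arrays close together. Bmp1, which is a protease that trims procollagens and cleaves chordin and not a BMP ligand, had 1 probe in each direction. The 3′ probe, A_51_P488646 (chr14:65119229-65119288), read 1816 against 13.5 on replicate 1 and 593 against 31.3 on replicate 2, with log2 ratios of 0.52 and 0.62 (mean 0.57 ± 0.07 SD, n = 2 arrays, adjusted p = 0.0467 in limma). The probe 12100 bases further 5′, A_52_P299921 (chr14:65131329-65131388), read 184 against 27.9 on replicate 1 and 97.3 against 47.1 on replicate 2, with log2 ratios of -0.71 and -0.86 (mean -0.78 ± 0.10 SD, n = 2 arrays, adjusted p = 0.0297 in limma), and its mean turned to 0.76 with median centring on all probes. Bmp1 was the only one of the 66 genes with a probe called in each direction. The Tgfbi probe and the 3′ Bmp1 probe entered the test through the vesicle RNA alone, so their directions are descriptions.

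Tgfb1i1 (Hic-5), a focal adhesion adaptor that also acts with Smads, was lower with probe A_51_P366344 (chr7:124350080-124350139), which read 1332 against 44.0 on replicate 1 and 543 against 124 on replicate 2. On the log2 scale after loess the arrays gave -0.54 and -0.79 (mean -0.66 ± 0.18 SD, n = 2 arrays, adjusted p = 0.0452 in limma), and its mean was 0.43 with median centring on the tested probes and 2.47 with centring on all probes, so its direction was the least settled of the 15. A probe 147 bases away read 194 against 8.98 on replicate 1 and 112 against 24.4 on replicate 2, with a ratio of -0.09 ± 0.19 (SD over n = 2 arrays, adjusted p = 0.64 in limma). The 3 tested probes of Bmp2k, a kinase induced by BMP2, had mean ratios of 0.12, 0.13 and 0.14. They were well above background in the vesicle RNA only, at 192 against 9.10 on replicate 1 and 71.2 against 8.37 on replicate 2 for A_51_P337944, 143 against 8.17 on replicate 1 and 55.4 against 7.89 on replicate 2 for A_51_P418749 and 81.7 against 8.94 on replicate 1 and 27.3 against 7.38 on replicate 2 for A_52_P392517. The files place A_51_P418749 on the opposite strand to the other 2. Tgfbrap1, a protein that binds TGF-beta receptors, read 209 against 11.0 on replicate 1 and 86.6 against 10.9 on replicate 2, with a ratio of 0.06 ± 0.13 (SD over n = 2 arrays, adjusted p = 0.744 in limma).

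After loess, none of the 27 probes well above background in the vesicle RNA only passed the test, apart from 1 Bmper probe. This depended on the scale. In the scanner's processed ratios Fst (2.51, adjusted p = 0.0212 in limma) and an Acvr2a probe (2.41, adjusted p = 0.0176 in limma) were among those that passed as higher. Others, such as Acvr2b (1.63, adjusted p = 0.0954 in limma), did not. On that scale 32% of all tested probes passed as higher. All 27 entered the test through the vesicle RNA alone, so their directions are descriptions.

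Several of these genes gave different ratios at different positions. For 15 of them at least 2 tested probes lay on the same strand, and the 3′ probe had the higher ratio in 10 (66.7%), against 55.7% of 3862 other genes. The most 5′ and most 3′ probes differed by over 1 on the log2 scale in 5 of the 15 (33.3%), against 9.97% of the other genes. These were Bmp1 (3′ minus 5′, 1.36), Inhbb (1.18), Smurf1 (1.12), Ltbp3 (1.04) and, in the opposite direction, Smad4 (-3.42). Tgfbr2 (0.74) and Smad1 (0.76) differed by less, and Bmpr2 (0.02), Bmpr1a (-0.06) and Smurf2 (-0.07) hardly at all. With median centring on the tested probes the 3′ probe was also the higher in 10 of the 15, against 70.2% of the other genes, and the differences of Smad1 (-1.63), Bmpr2 (-0.32), Bmpr1a (2.16) and Tgfb1i1 (1.24) had the opposite sign. These are descriptions of probes chosen with the genes, and no test was run on them.

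**Figure D3:**
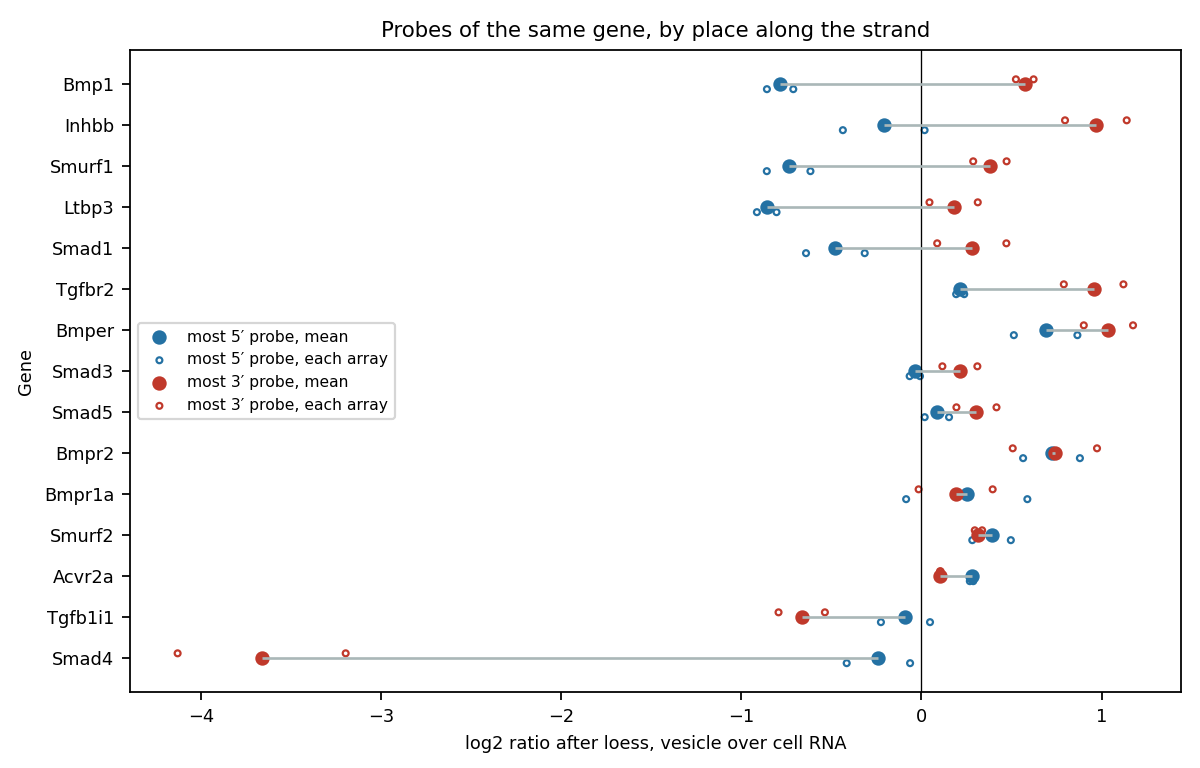
Log2 ratio after loess (x axis) of the most 5′ (blue) and the most 3′ (red) tested probe of each of 15 genes (y axis), ordered by the difference, with filled points for the mean of both arrays and open points for each array. The red point lies to the right in 10 genes, and the Smad4 probes lie furthest apart, at -0.24 and -3.66.

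The 15 probes that passed had the same sign on both arrays, which selection on the mean of those arrays favours. Of the 15, 14 kept their sign both in the scanner's processed ratios and with median centring on the tested probes, Tgfb1i1 being the exception. With median centring on all probes 10 kept their sign, and the lower probes of Bmp1, Ltbp3, Ltbp4, Smurf1 and Tgfb1i1 turned positive, where the median of all tested probes was itself 2.04. The 7 higher probes were positive on all 4 scales, and 5 of them entered the test through the vesicle RNA alone. Gdf11, which entered the test through the cell RNA alone, Chrd and the lower Smad4 probe were negative on all 4. The scales rework the same 2 arrays, so their agreement is no added support. Of all tested probes, 70.1% were positive in the processed ratios and 91.4% with median centring on all probes.

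**Figure D4:**
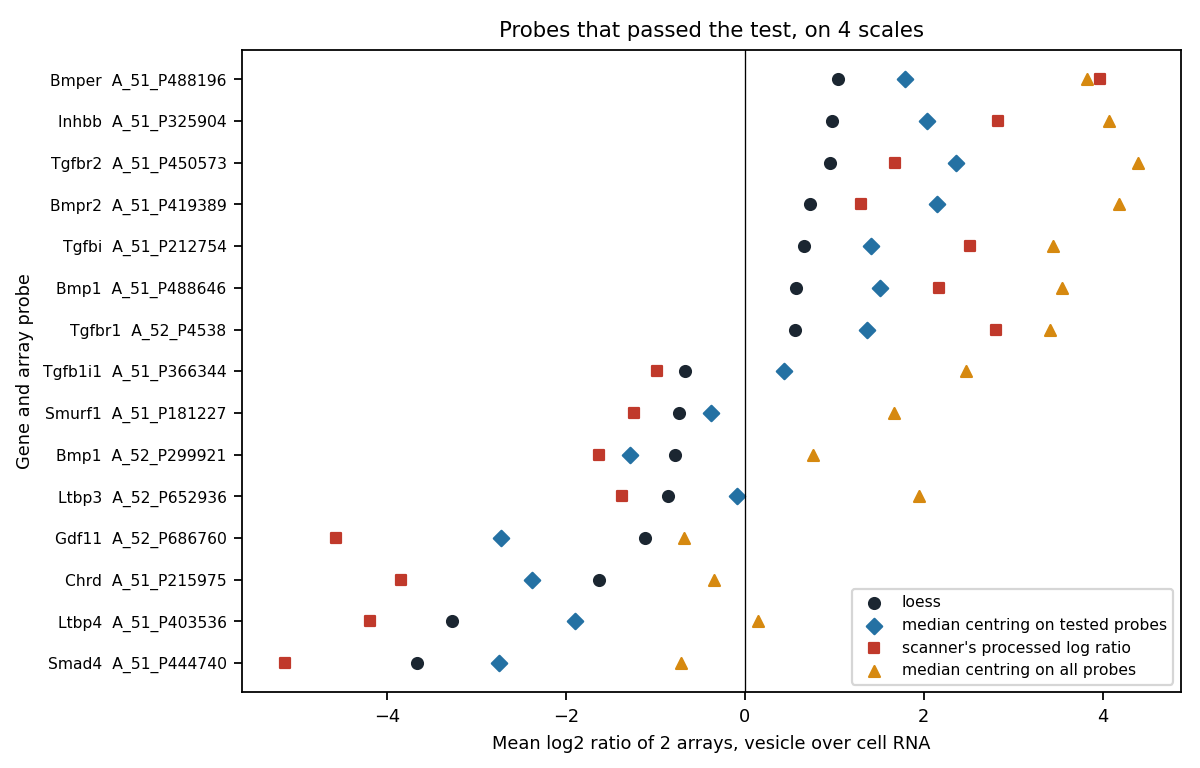
Mean log2 ratio of both arrays (x axis) of the 15 probes that passed the test (y axis) after loess (black circles), with median centring on the tested probes (blue diamonds), as the scanner's processed log ratio (red squares) and with median centring on all probes (orange triangles). The upper 7 probes are right of 0 on every scale; Tgfb1i1 lies right of 0 with both centrings, and Smurf1, Bmp1, Ltbp3 and Ltbp4 with centring on all probes.

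Of the pathway genes that the family names do not cover, 72 were on the array, with 138 probes. Of 76 tested probes, 9 were higher (5.54% of all tested probes) and 11 lower (10.9%), with a median log2 ratio of 0.09. Extracellular modulators gave 6 higher and 2 lower of 23 tested probes. Fstl1, a secreted follistatin-like protein, had a ratio of 1.41 ± 0.39 (SD over n = 2 arrays, adjusted p = 0.0239 in limma). Rgma, a BMP co-receptor, had one of 1.16 ± 0.06 (SD over n = 2 arrays, adjusted p = 0.0159 in limma), and Vasn (vasorin, which binds TGF-beta) one of 1.05 ± 0.29 (SD over n = 2 arrays, adjusted p = 0.0288 in limma). Furin, the convertase that cuts TGF-beta precursors, was higher at 0.99 ± 0.23 (SD over n = 2 arrays, adjusted p = 0.027 in limma), and Thbs1 (thrombospondin 1, an activator of latent TGF-beta) at 0.84 ± 0.09 (SD over n = 2 arrays, adjusted p = 0.0266 in limma), while 2 further Thbs1 probes (0.08 and 0.15) did not pass. Lower in this list were Itgb8, an integrin chain that activates latent TGF-beta, at -4.04 ± 2.02 (SD over n = 2 arrays, adjusted p = 0.0416 in limma), and Sost (sclerostin) at -0.89 ± 0.38 (SD over n = 2 arrays, adjusted p = 0.0473 in limma). Itgb8 read 13.2 against 98.8 on replicate 1 and 5.02 against 579 on replicate 2. Both Itgb8 and Sost entered the test through the cell RNA alone, so their direction is no result. Vasn and the higher Thbs1 probe entered it through the vesicle RNA alone, so their directions are descriptions.

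No receptor partner passed among 11 tested probes, with 1 higher and 0 lower at an unadjusted p under 0.05 in limma and a median of 0.18. Of the ligands outside the family names, Nodal and Amh were tested, both through the cell RNA alone, since neither was well above background in the vesicle RNA on both arrays, so the filter let them in only where the cell RNA was high and their direction is no result. Nodal was at -1.18 ± 0.59 (SD over n = 2 arrays, adjusted p = 0.049 in limma) and Amh at -0.81 ± 0.30 (SD over n = 2 arrays, adjusted p = 0.0446 in limma). Among Smad co-regulators 4 of 20 tested probes were lower and none higher (5 and 1 at an unadjusted p under 0.05 in limma). The called shares of all tested probes were 10.9% lower and 5.54% higher. Rnf111 (Arkadia), a ubiquitin ligase that targets Smad7 and Ski for breakdown, read 446 against 1038 on replicate 1 and 136 against 3017 on replicate 2 with 1 probe, with log2 ratios of -6.41 and -6.95 (mean -6.68 ± 0.38 SD, n = 2 arrays, adjusted p = 0.00116 in limma). Zeb1, a Smad-binding transcription factor, was lower at -1.38 ± 0.30 (SD over n = 2 arrays, adjusted p = 0.0199 in limma), Usp15, a deubiquitinase of the pathway, at -1.36 ± 0.17 (SD over n = 2 arrays, adjusted p = 0.0149 in limma), and Ski, a Smad co-repressor, at -1.20 ± 0.14 (SD over n = 2 arrays, adjusted p = 0.0176 in limma). Zeb1's mean was 0.07 with median centring on the tested probes. Other tested probes of Rnf111 (-0.24), Ski (-0.02) and Usp15 (0.16, 0.08 and -0.65) did not pass.

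Genes that Smads are known to induce went in both directions. Of 20 tested probes, 3 were higher and 3 lower, where 5.54% and 10.9% of all tested probes were. Col1a1, the alpha 1 chain of collagen I, was higher with 2 of its 3 tested probes, at 2.14 ± 0.48 (SD over n = 2 arrays, adjusted p = 0.0159 in limma) and 1.23 ± 0.17 (SD over n = 2 arrays, adjusted p = 0.0178 in limma). The third Col1a1 probe had a mean of 0.06 and did not pass. Id1, a target of BMP Smads, was higher with 1 probe, at 0.76 ± 0.23 (SD over n = 2 arrays, adjusted p = 0.0417 in limma). Another tested Id1 probe had a mean of 0.55 and did not pass. Tagln, an actin-binding protein of contractile cells, was lower at -2.56 ± 0.19 (SD over n = 2 arrays, adjusted p = 0.00501 in limma). Junb, an AP-1 subunit, was lower with both called probes, at -5.16 ± 0.66 (SD over n = 2 arrays, adjusted p = 0.00506 in limma) and -1.18 ± 0.45 (SD over n = 2 arrays, adjusted p = 0.0353 in limma), of which the second was 0.36 with median centring on the tested probes.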

How the data were processed

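ADM and donor-cell RNA were measured on 2 dye-swapped 44K mouse arrays that share a slide and a scan. Spot and background intensities were deposited as the scanner gave them (Feature Extraction 10.5.1.1, annotation build mm7, per the file headers). The log10 ratio of Cy5 over Cy3 and the processed signals had been background-subtracted and dye-normalized by that program, per the file headers. Other deposited columns are flags for outliers, saturation (set on 0 spots) and signal well above background.

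Background was corrected with normexp (offset 50) and ratios were normalized by loess within each array, control spots at weight 0, in limma 3.58.1 (R 4.3.3). Spots with an outlier flag of the spot or its local background were left out (2303 and 1710 for background, 293 and 253 for the spot). Leaving out those of outlying background was settled after an earlier run that kept them gave no calls. The sign of array 2 was turned by the dye labels. Repeated spots were averaged per probe. A probe was tested where at least 50% of its spots were well above background in the same RNA on both arrays. The mean ratio was tested against 0 (lmFit, eBayes, Benjamini-Hochberg over 18117 probes at 0.05), with 1 residual and 2.917 prior degrees of freedom. The prior degrees of freedom were infinite with either median centring, so all probes there share a single variance, and those p-values do not reflect a probe's own spread. ± is the SD. The number of arrays limits the precision. The fit was tested on simulated data.

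Probes keep the names of the files; RefSeq accessions (GRCm38.p6) matched 85 of 105 probes and gave another name for 1. Members and lists were chosen with earlier results of these data known. Values of 1 member gene are not reported here, though the counts include it. Values per array are given for those called, those whose probes differ in sign or call, those well above background in 1 RNA only and the 10 probes of highest signal, and from the other lists for the 5 largest called genes in each direction. The study's series table held the scanner's log10 ratio, with the sign turned on array 2.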

Additional observations from a re-analysis of the deposited data

How the results depend on the processing

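No paired analysis was possible because each array already pairs the RNAs of its replicate, and slide and scan were shared, so neither could be a block. Beside 7 higher and 8 lower TGF-beta and BMP probes, the 18117 tested probes gave 1004 higher and 1973 lower, and the 76 probes of other pathway genes gave 9 and 11. Higher and lower counts for these 3 sets were 30 and 0, 10778 and 265, and 46 and 2 with median centring on all probes, and 18 and 26, 6534 and 6582, and 23 and 25 with centring on the tested probes (chosen after seeing the data). Higher counts were 30, 5798 and 31 in the scanner's processed log ratios. With outlying local backgrounds kept, limma called 0 probes in every set and direction (over all probes, 10 higher and 146 lower at an unadjusted p under 0.05). Plain background subtraction gave 2 and 4, 462 higher over all probes, and 4 and 7 for other pathway genes. A normexp offset of 10 gave 12 higher probes, and 1866 and 3063 over all. Scaling between arrays gave 11 higher and 1783 over all, and moderation with a trend 11 and 1712. The stricter filter left 17 probes, with 2 higher, and 1 probe per gene gave 3 lower; these tested fewer probes, and for the others the cause was not tested. The median log2 ratio of 0.17 was 1.505 and -0.53 with centring on all and on tested probes, 1.35 in processed ratios, 0.0071 with backgrounds kept, 0.28 with an offset of 10, 0.55 with plain subtraction, 0.031 without the filter and -0.24 with the stricter filter. With centring on all probes the lower probes of Bmp1 (0.76), Ltbp3 (1.95), Ltbp4 (0.14), Smurf1 (1.66) and Tgfb1i1 (2.47) changed sign, as did Tgfb1i1 (0.43) with centring on the tested probes. Chrd passed the test in the main setting at an adjusted p of 0.049 in limma, and over its alternatives the adjusted p ran from 1.81e-10 to 0.726. A single array leaves no residual degrees of freedom, so leaving out a replicate gives values with no test: the median ran from 0.087 without replicate 2 to 0.15 without replicate 1, probes well above background in cell RNA from 18 without replicate 2 to 36 without replicate 1, and probes at least 2-fold higher reached 3 without replicate 1. All 15 called probes kept their sign on each array alone, but they were selected on the mean of both arrays, which favours this, so it is no check.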
